A study of Homo sapiens with 4 samples.

Results

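TFRC and FLVCR1 are mRNAs of cellular iron and heme transport that were bound by MARF1 in an iCLIP experiment in HEK293 cells. They were chosen by the peak calls themselves: a region was a member when it carried either gene symbol in the final list of shared intervals, or when it was a peak of either replicate over either gene in hg19. This gave 8 of the 282 shared intervals, 6 in TFRC and 2 in FLVCR1. It also gave 11 of the 719 peaks of replicate 1 and 10 of the 534 peaks of replicate 2. Since the peak calls selected the members, all values of peaks below are descriptions and none was tested.

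F-MARF1ΔNYN is a FLAG-tagged MARF1 that lacks the NYN domain, the RNase domain of the protein, and was expressed from a doxycycline (Dox)-inducible transgene in HEK293 (HEK293-Trex) cells, a human embryonic kidney line. The 2 F-MARF1ΔNYN libraries came from cells given 100 ng/mL of Dox for 12 hr, and the 2 control libraries from HEK293 cells without a FLAG-tagged protein, for which the sources used here do not state whether Dox was given. In both groups RNA was crosslinked to protein with UV light of 254 nm at 400 mJ per square centimetre, 20000000 cells were lysed, and complexes were precipitated with a FLAG antibody. Each F-MARF1ΔNYN library was compared with the control of the same number, so every peak has 1 fold enrichment per replicate and no further error. The fold enrichment is the F-MARF1ΔNYN signal at the summit over the local background from the control, after 1 was added to each, so at a low background it is smaller than the plain ratio. The protein measured came from an induced transgene and lacked its RNase domain. The peak lists carry no strand and no expression level, so binding could not be set against the amount of each mRNA.

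TFRC encodes the transferrin receptor, which takes iron-loaded transferrin into the cell. Its 3'UTR is a textbook case of regulated mRNA decay: when iron is scarce, iron regulatory proteins bind stem loops called iron-responsive elements (IREs) and protect the mRNA from cleavage, and when iron is plentiful they leave and the mRNA is degraded. FLVCR1 encodes a membrane transporter known for exporting heme, the iron-holding group of hemoglobin, and for choline transport.

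The TFRC IREs are shown because the peaks of this gene were placed against them. They were found by letters and pairing in the sense strand: an unpaired C, 5 bases, a loop of 6 bases spelled CAGNGN, and 5 bases that pair with the first 5. In the hg19 annotation the 3'UTR of TFRC was 2658 bases long, on the minus strand of chromosome 3, and held 5 such stem loops, here lettered from the stop codon. Each is printed as RNA in the sense direction with its loop in capitals. They lay, in order, at chr3:195777901-195777927, chr3:195777851-195777877, chr3:195777447-195777473, chr3:195777382-195777408 and chr3:195777335-195777361.
IRE-A: uuuaucagugaCAGAGUucacuauaaa
IRE-B: auuaucggaagCAGUGCcuuccauaau
IRE-C: auuaucgggagCAGUGUcuuccauaau
IRE-D: uguaucggagaCAGUGAucuccauaug
IRE-E: auuaucgggaaCAGUGUuucccauaau
FLVCR1 had 0 such stem loops in its 3'UTR of 4073 bases on the plus strand of chromosome 1. For this gene, 30 bases around the replicate 2 summit inside its first shared interval are printed instead, with the summit base in capitals, from chr1:213069823-213069852.
FLVCR1 interval 1: ggaccaaauauauuUccacagugccuacca

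In TFRC, F-MARF1ΔNYN peaks ran along most of the 3'UTR in both replicates. Replicate 1 had 6 peaks and replicate 2 had 4, and all 10 overlapped a peak of the other replicate. In all peaks of the lists, 35.9% of those of replicate 1 and 46.8% of those of replicate 2 were shared. The TFRC count has to be read against the width of its peaks, which covered 79.3% of the 3'UTR in replicate 1 and 77.7% in replicate 2. An overlap of 1 bp was enough, and the gene was selected for having shared intervals. The 6 shared intervals lay in the 3'UTR by the authors' Homer annotation and by GENCODE alike, and no peak lay elsewhere in the gene. Among 20149 protein-coding genes, 100 (0.496%) had a shared interval under their symbol in the final list, and 110 had one by overlap with an exon. TFRC and FLVCR1 were 2 of the 100 because they were selected for it. No other annotated gene on either strand overlapped the 3'UTR of TFRC or of FLVCR1, although an unannotated antisense RNA cannot be told apart without strand.

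Positions are given below in bases after the stop codon. The TFRC intervals are numbered from the stop codon. Interval 1, bases 105 to 202 (chr3:195778611-195778708), had a fold enrichment of 8.32 in replicate 1 and lay in a longer peak of replicate 2 with 15.0. That longer peak also held interval 2, bases 323 to 572 (chr3:195778241-195778490), where replicate 1 had 8.44. This stretch was therefore 1 peak in replicate 2 and a pair of peaks in replicate 1. Intervals 3 and 4, bases 727 to 876 (chr3:195777937-195778086) and 922 to 1108 (chr3:195777705-195777891), had 9.56 and 8.32 in replicate 1 and lay in a single peak of 9.53 in replicate 2. Interval 5 was the longest with 668 bases, from base 1293 to 1960 (chr3:195776853-195777520), and had the highest fold enrichment of the gene in each replicate, 15.9 and 15.5. Interval 6, bases 2127 to 2657 (chr3:195776156-195776686), had 12.2 and 12.9. When an overlap of at least 50% of both peaks was asked for, intervals 2, 5 and 6 were left, 3 of the 6.

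**Figure D1:**
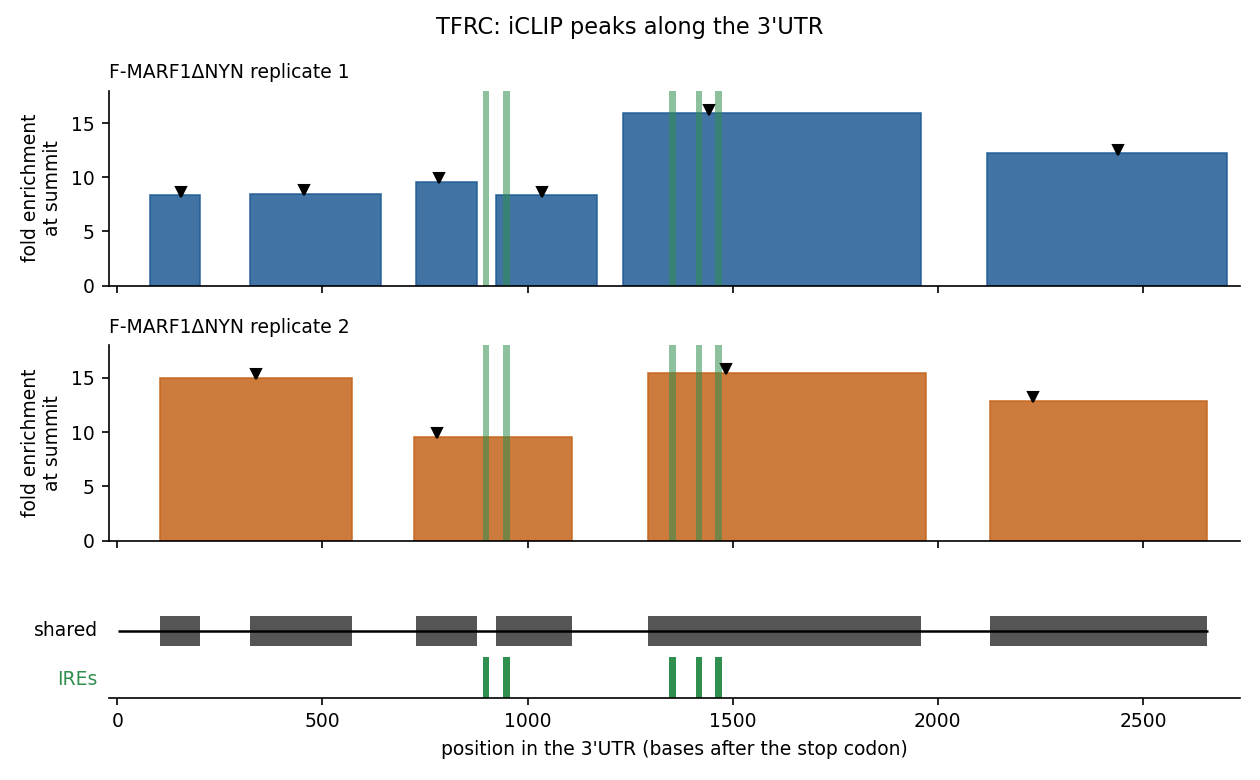
Peaks of each F-MARF1ΔNYN replicate along the TFRC 3'UTR, in bases after the stop codon. A bar spans a peak and its height is the fold enrichment at the summit (triangle), not a read profile; grey boxes are the 6 shared intervals and green marks the 5 IREs, of which the first falls between peaks of replicate 1.

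Summits were placed less alike than peaks. The closest pair, at bases 783 and 778, was 5 bases apart. In interval 5 the summits at bases 1441 and 1484 differed by 43 bases, and in interval 6 those at 2438 and 2231 differed by 207 bases. The summit at base 1036 in replicate 1 was 258 bases from the nearest of replicate 2, the largest distance in this gene. Both replicates together covered 86.2% of the 3'UTR, and 1884 of its 2658 bases (70.9%) lay in shared intervals. Replicate 1 covered 79.3% and replicate 2 77.7%. The stretches without a peak in either replicate were bases 1 to 78, 643 to 721, 1170 to 1232 and 1973 to 2120. The last peak of replicate 1 ran 48 bases past the annotated end of the transcript, while that of replicate 2 ended 1 base before it.

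The IREs spanned 583 bases in 2 groups, with IRE-A and IRE-B (bases 891 to 957) separated by 387 bases from IRE-C, IRE-D and IRE-E (bases 1345 to 1473). A stem loop was counted as inside when all its 17 bases from the unpaired C to the end of the upper stem lay in a peak. By this count 4 of 5 lay in peaks of replicate 1, 5 of 5 in peaks of replicate 2 and 4 of 5 in shared intervals. IRE-A was the exception. It fell in a gap of 45 bases in replicate 1, 14 bases from the peak on either side, and inside the peak of 9.53 in replicate 2. IRE-B lay in interval 4, and IRE-C, IRE-D and IRE-E lay in interval 5, the one with the highest fold enrichment. The count has to be read against the width of the peaks. Shared intervals held 63.1% of the span from IRE-A to IRE-E and 73.1% of the 3'UTR outside it.

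The summits of highest fold enrichment were those nearest to an IRE, but they were not the summits with the most reads. In replicate 1 summits 435 and 965 bases from an IRE had 21 reads against 20, and in replicate 2 a summit 758 bases away had 26 against 25, differences well within counting error. In replicate 1 the summit of highest fold enrichment (base 1441) lay between IRE-D and IRE-E, 15 and 16 bases from them. In replicate 2 (base 1484) it lay 11 bases beyond IRE-E and 58 bases from IRE-D. The other summits of the gene were at least 79 bases from any IRE in replicate 1 and at least 113 bases in replicate 2. Interval 6 had no IRE within 758 bases of its summits, with fold enrichments of 12.2 and 12.9. The TFRC peaks were 124 to 728 bases wide and no crosslink positions were used here, so contact with an IRE itself was not tested.

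Stem loops with these letters and pairing were found in 391 of 19307 annotated 3'UTRs (2.03%). TFRC was the gene with 5, and no other 3'UTR had more than 3. Of the 3'UTRs of genes in the final list, 8 of 100 held at least 1, among them TFRC and TXLNA. These 3'UTRs were longer, with a median of 3575.5 bases against 1222 for all annotated 3'UTRs, and the shares were not adjusted for length. Read on both strands, 4 of the 282 shared intervals (1.42%) held one, and 2 of these 4 were intervals 4 and 5 of TFRC. RNAfold drew the unpaired C, the 5 pairs and the 6-base loop for all 5 sequences printed above, with predicted energies from -4.9 kcal/mol for IRE-A to -10.3 kcal/mol for IRE-E. The energies of IRE-B, IRE-C and IRE-D were -6.2, -5.5 and -9.0 kcal/mol.

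Reads at a summit were recovered from the fold enrichment and p-value of the peak caller, and a single whole number solved each of the 21 member peaks. TFRC had 14, 21, 17, 14, 20 and 21 reads at its summits in replicate 1, from the stop codon to the 3' end. In replicate 2 it had 21, 19, 25 and 26. For comparison, the median over all peaks was 8 reads in replicate 1 and 11 in replicate 2. The exact 95% Poisson intervals, which cover counting error only, ran from 7.65 to 23.5 for 14 reads and from 13.0 to 32.1 for 21 reads, so the summits of replicate 1 could not be ordered by reads. Control reads in the 100 bp around a summit numbered at most 2 in replicate 1 and at most 1 in replicate 2. The high fold enrichment of interval 5 stood on 20 reads over 0 control reads in replicate 1, whereas interval 2 had 21 reads over at most 2. Differences in fold enrichment along TFRC thus moved with the control as well as with the F-MARF1ΔNYN reads.

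**Figure D2:**
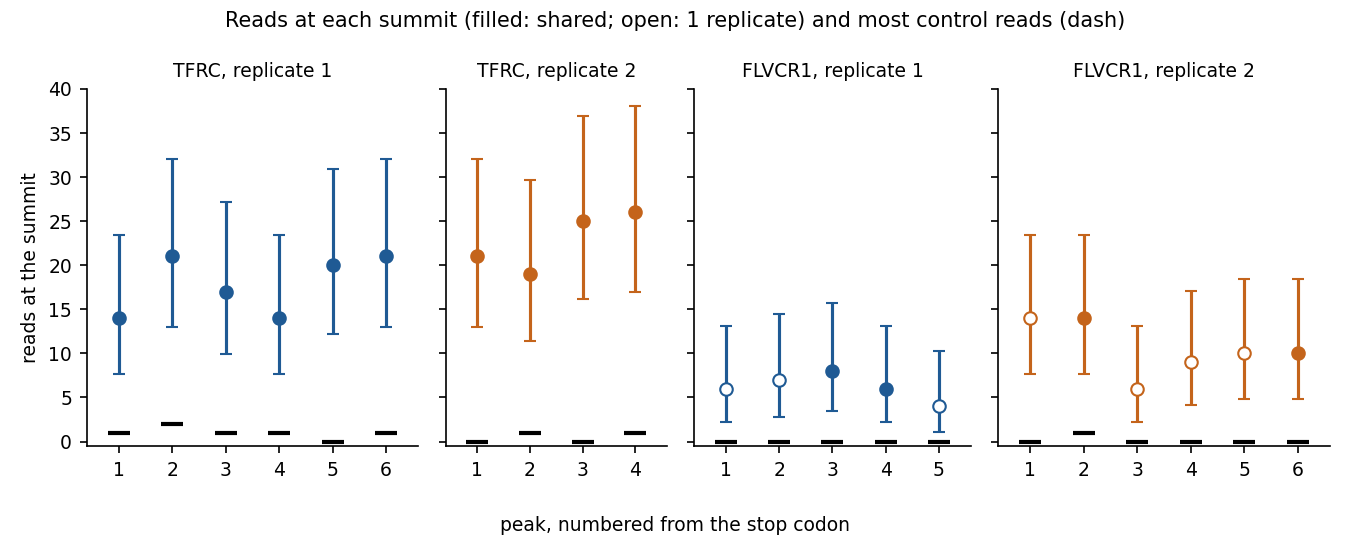
Reads at the summit of each peak (points, y axis) with exact 95% Poisson intervals, by gene and replicate, with peaks numbered from the stop codon; dashes are the most control reads that the local background allows. TFRC summits hold 14 to 26 reads and FLVCR1 summits 4 to 14, and open points are peaks without overlap in the other replicate.

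In FLVCR1 the peaks covered less of the 3'UTR than in TFRC. Replicate 1 had 5 peaks and replicate 2 had 6, all in the 3'UTR, and 4 of the 11 overlapped a peak of the other replicate. The shared peaks were 40% of those in replicate 1 and 33.3% in replicate 2, beside 35.9% and 46.8% over all peaks. Interval 1, bases 1102 to 1305 (chr1:213069734-213069937), had fold enrichments of 6.81 and 7.15 and summits 30 bases apart, at bases 1175 and 1205. Interval 2, bases 3522 to 3598 (chr1:213072154-213072230), was an overlap of 77 bases between the ends of a pair of peaks with 6.20 and 9.30. Its summits, at bases 3572 and 3437, were 135 bases apart, and that of replicate 2 lay outside the shared interval. At a reciprocal overlap of 50%, interval 1 was left. Shared intervals held 281 of 4073 bases (6.90%). Replicate 1 covered 17.8% of the 3'UTR and replicate 2 27.8%.

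Peaks seen in 1 replicate overlapped the shared ones in fold enrichment. In replicate 1 these were at bases 265 to 387 (6.16), 457 to 558 (6.89) and 3854 to 3953 (4.31). In replicate 2 they were at bases 917 to 1018 (10.2), 2105 to 2205 (5.99), 2292 to 2431 (8.53) and 2740 to 2947 (8.76). The peak of 10.2 was the highest of FLVCR1, and 80 bases lay between it and the replicate 1 peak of interval 1. The weakest member of either gene was the peak at bases 3854 to 3953, with a q-value of 0.0127 against the authors' limit of 0.05. The weakest peak in either list had a q-value of 0.0489. Peaks over the limit were not analysed here, so the values just outside it are not given.

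**Figure D3:**
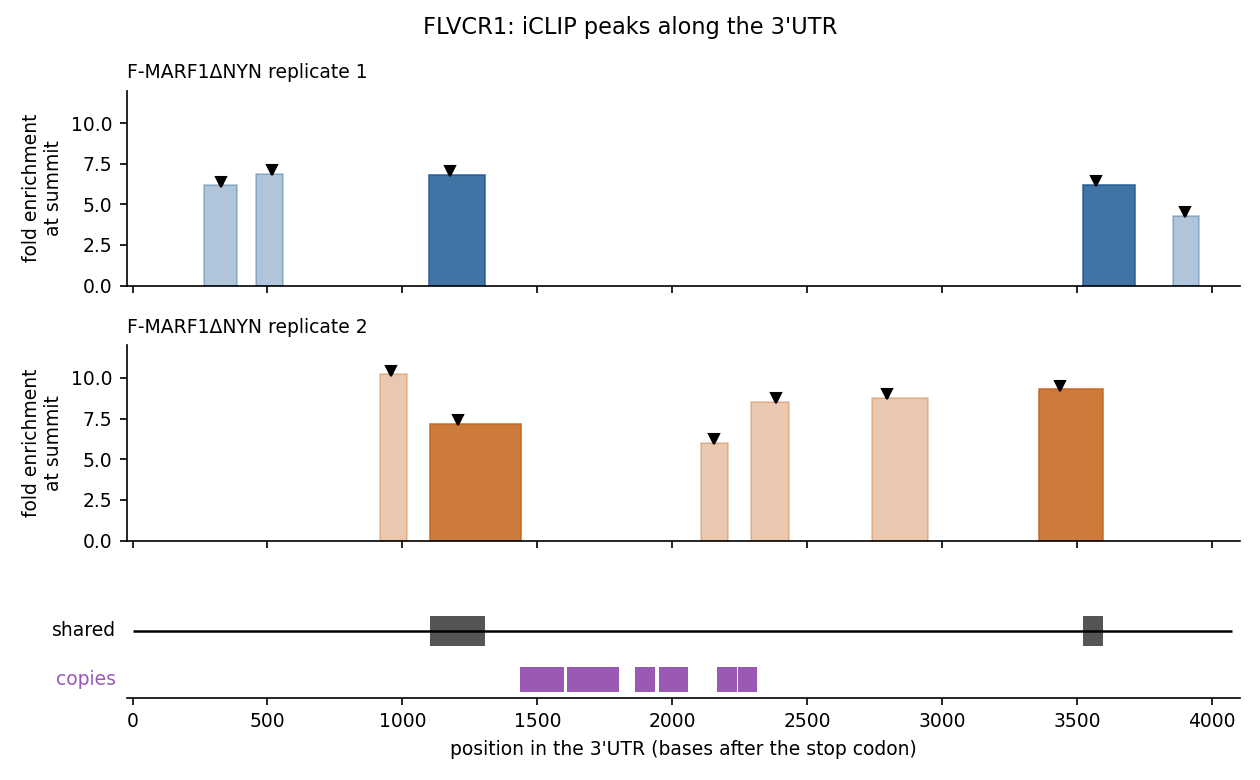
Peaks of each replicate along the FLVCR1 3'UTR, in bases after the stop codon, with bar height giving the fold enrichment at the summit (triangle). Dark bars are shared and pale bars are in 1 replicate; grey boxes are the 2 shared intervals and purple boxes the stretches with near-identical sequence elsewhere in the genome, between bases 1436 and 2313.

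The depth at FLVCR1 limits how firmly its peaks can be compared. Summits held 6, 7, 8, 6 and 4 reads in replicate 1, and 14, 14, 6, 9, 10 and 10 in replicate 2. The intervals were wide, from 1.09 to 10.2 for 4 reads and from 3.45 to 15.8 for 8 reads. Control reads numbered 0 at every summit of replicate 1 and at most 1 in replicate 2. At this depth, a difference between replicates at a peak called in one of them was not measurable from the lists, since an uncalled stretch has no value.

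Sequence that occurs elsewhere was present in FLVCR1 and not in TFRC. At 95% identity over at least 50 bases, 686 bases of the FLVCR1 3'UTR (16.8%) matched other places of the genome, in 6 stretches between bases 1436 and 2313, and 0 bases of TFRC did. The authors dropped reads that mapped to many places, so reads from these stretches can be missing from the lists, and reads that were kept can have come from the copies. No base of a shared interval and no summit lay in them. The peaks of replicate 2 at bases 1102 to 1441, 2105 to 2205 and 2292 to 2431 ran into them by 6, 42 and 22 bases, and no peak of replicate 1 did. The part of these copies in the empty stretch of 663 bases from base 1442 to 2104 was not tested.

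Short motifs were counted in the sense strand, inside and outside the shared intervals of each gene, with no test. AUUUA, the core of AU-rich elements, occurred 12 times in the TFRC 3'UTR, 5 times inside shared intervals (2.65 per kb) and 7 times outside or across an edge (9.04 per kb). In FLVCR1 it occurred 11 times, with 0 in the 281 bases shared. It was found in 69.5% of all annotated 3'UTRs. The longer UAUUUAU, which contains AUUUA and was found in 32.7% of 3'UTRs, occurred 2 times in TFRC and 1 time in FLVCR1, with 0 in shared intervals. AAAUU, in 71.02% of 3'UTRs, occurred 11 times in TFRC, 7 of them in shared intervals (3.72 per kb, and 5.17 per kb outside), and 15 times in FLVCR1, with 0 in the 6.90% of bases that were shared. AAUAAA, the polyadenylation signal, was in 81.01% of 3'UTRs. TFRC had 4, all in shared intervals, with the last 15 bases before the annotated end. FLVCR1 had 14, of which 11 lay in a run of AAUA repeats at bases 1878 to 1921, and 0 in shared intervals. Base composition was near equal inside and outside in TFRC, with 37.5% and 37.6% G and C. In FLVCR1 it was 42.3% inside and 37.7% outside.

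Predicted folding along both 3'UTRs was taken in windows of 100 nt every 10 nt. A separate window of 100 nt centred on each summit was set against these, and neighbouring windows can differ from it. At the TFRC summit of highest fold enrichment, the window had -0.312 kcal/mol per nt in replicate 1, and 0.391% of the 256 windows of the 3'UTR were lower. The matching value in replicate 2 was -0.266, with 5.86% of windows lower. The other TFRC summits lay within the bulk of windows, between 22.3% and 74.6%. The lowest window of TFRC, at bases 2361 to 2460 with -0.321, lay in interval 6 and held no IRE. Its middle was close to the replicate 1 summit at base 2438, whose own window had -0.218. In medians, the 128 TFRC windows wholly inside shared intervals had -0.200 and the 24 wholly outside had -0.188. For FLVCR1 the medians were -0.214 in 10 windows inside and -0.170 in 351 outside. These 10 overlapping windows all lay in interval 1, since interval 2 of FLVCR1, with 77 bases, was shorter than a window. Interval 1 of TFRC, with 98 bases, was left out of the TFRC median in the same way. The lowest FLVCR1 window, at bases 1441 to 1540 with -0.403, lay outside shared intervals. In FLVCR1 the summits ranged from 0.251% to 84.9%, and the lowest of them was that at base 2156, whose peak ran into the copied sequence. Windows overlap, so these shares are descriptions along 1 sequence.

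**Figure D4:**
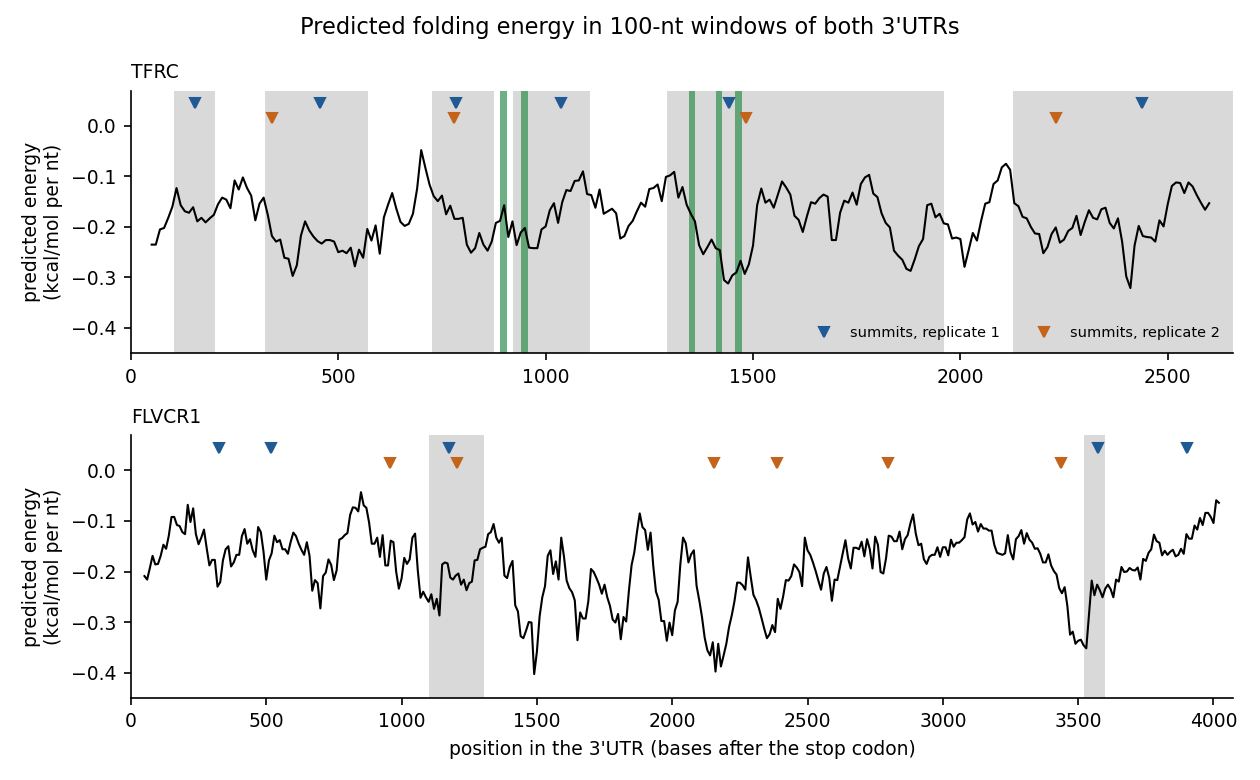
Predicted folding energy per nt (y axis, lower is more stable) in 100-nt windows along the TFRC and FLVCR1 3'UTRs (x axis, bases after the stop codon), with shared intervals in grey, IREs in green and summits as triangles by replicate. The TFRC summits of highest fold enrichment sit at the dip near IRE-D and IRE-E, at -0.312 and -0.266, while the windows at the other TFRC summits lie between -0.228 and -0.151.

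TFRC and FLVCR1 were set among the 117 genes of the final list. Each gene was given its best shared interval, scored by the replicate with the lower fold enrichment. By this value TFRC ranked 2 with 15.5 and FLVCR1 ranked 65 with 6.81, and the median was 7.21. With 6 shared intervals TFRC tied with 3 other genes behind 5 with more, up to 13. By the share of the 3'UTR in shared intervals, TFRC ranked 4 and FLVCR1 44 of 95 genes, with a median of 6.33%. Genes were matched to a 3'UTR by symbol, so those whose symbol was not found with one, such as C16orf45, were left out of this ranking. By reads at the summit in the replicate with fewer, the 6 TFRC intervals ranked from 32 to 90 of all 282 intervals. Interval 5 ranked 39 by reads and 2 by fold enrichment in its lower replicate. The FLVCR1 intervals ranked 213 and 259 by reads, and 134 and 176 by fold enrichment. The genes nearest to TFRC in number of intervals and fold enrichment were TXLNA (5 intervals, 13.8), C16orf45 (6 intervals, 11.9) and ZNF609 (6 intervals, 10.8). TXLNA also had a like share of its 3'UTR covered, 74.6%, and ZNF609 had 30.6%. Nearest to FLVCR1 were FAF2, with 6.75 and 6.63% of its 3'UTR, PHF10, with 6.68 and 8.50%, and RP11-680F20.12, with 6.68, all with 2 intervals. The likeness was taken over 2 measures of the same libraries.

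**Figure D5:**
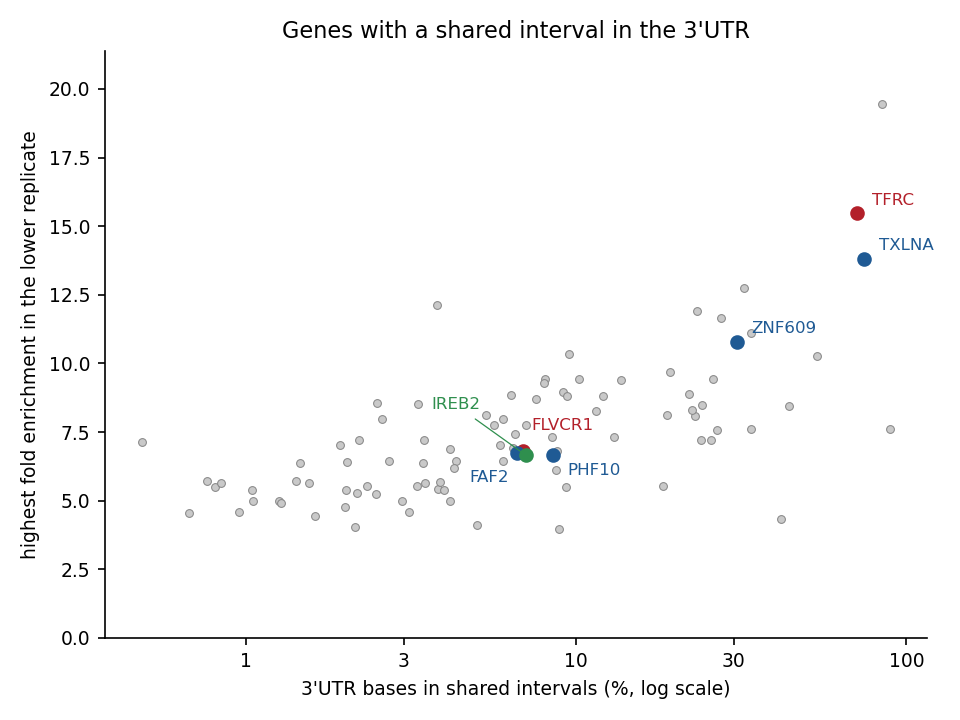
Fold enrichment of each gene's best shared interval in its lower replicate (y axis) against the percentage of 3'UTR bases in shared intervals (x axis, log scale) for the 95 genes with such an interval in the annotated 3'UTR. TFRC lies at 70.9% and 15.5 and FLVCR1 at 6.90% and 6.81. Blue points are the nearest genes whose symbol was found with a 3'UTR in the annotation, and green is IREB2.

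Other genes of iron and heme handling were looked up from a list of 42, of which 8 formed a mixed class of iron sensors (ACO1, IREB2 and FBXL5), decay regulators (ZC3H12A, RC3H1 and RC3H2) and other genes whose mRNAs carry an IRE (EPAS1 and CDC42BPA). A shared interval was found for 1 of the 42, beside 0.496% of protein-coding genes. This was IREB2, which encodes iron regulatory protein 2, an IRE-binding protein that protects TFRC mRNA. A peak in an exon in either replicate was found for 2 of the 42 (4.76%), IREB2 and RC3H2, beside 433 of 20149 protein-coding genes (2.15%). The list was chosen with earlier results of these data known, so these shares are descriptions and were not tested. IREB2 had 4 peaks in replicate 1, with fold enrichments up to 10.1, and 5 in replicate 2, up to 11.4, all with summits in its 3'UTR of 3310 bases. Its 2 shared intervals joined peaks of 5.55 and 4.77 and peaks of 6.65 and 11.4. RC3H2 encodes Roquin-2, a protein that promotes decay of mRNAs through stem loops, and had 1 peak in replicate 2 with 7.15 and 14 reads. Both belong to the mixed class of 8, and its 6 other genes, among them ACO1 (iron regulatory protein 1), had 0 peaks in exons. The 7 genes of iron storage and export, the 9 of heme synthesis and the 9 of other heme transport and breakdown had 0 peaks in exons. So had the 7 of iron uptake and recycling and the 2 of mitochondrial import. Whether these mRNAs were abundant enough in the cells to give a peak was not tested.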

How the data were processed

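The authors trimmed reads with Trimmomatic 0.32, aligned them to hg19 with STAR 2.3.0e, removed reads mapping to many places, secondary alignments (SAMtools 1.9) and duplicates (Picard 2.10.7), and called peaks per replicate with MACS2 2.1.1 (extension 100 bp, FDR 0.05). HOMER 4.10 annotated the intersection. Each peak of the deposited lists has a position, a fold enrichment (a ratio of signal to local background, each with 1 added), −log10 values for its p-value and q-value, and a score derived from the latter. Library totals are unknown. The members and gene lists were chosen with earlier results of these data known.

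Here the lists were intersected at 1 bp, which gave all 282 deposited intervals. All 1253 peaks lay within the chromosomes of GRCh37, and 3'UTRs came from GENCODE release 44 on that build, using the coding transcript with the longest 3'UTR. Reads at summits were solved from fold enrichment and p-value within 0.003 of −log10 p, a step tested on simulated data. Genes named with values were TFRC, FLVCR1, list genes with a peak, and the 3 nearest genes to each. The other genes of the mixed class were named as its members. Near-identical sequence was sought with blastn 2.17.0, and folding predicted with ViennaRNA 2.7.2. Tables and plots were made in Python 3.11.15 with pandas 2.3.3, matplotlib 3.10.9, scipy 1.17.1 and numpy 2.4.6. The sequence at the other shared interval of FLVCR1 is not reported here. Of columns with per-sample values, 0 were left unused.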

Additional observations from a re-analysis of the deposited data

How the results depend on the processing

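For 12 results recomputed under alternatives, 52 of 64 values stayed near the reported value, meaning within 1.5 times for a count and within 1 SD between the replicates for a fold enrichment or a share, and 12 moved. A reciprocal overlap of 50% left 3 TFRC intervals (54.5% of the 3'UTR) with 3 IREs, and 1 FLVCR1 interval. With each replicate alone, in place of their intersection, TFRC had 4 to 6 intervals, covering 77.7 to 79.3% of the 3'UTR, a highest fold enrichment of 15.5 to 15.9 and 4 to 5 IREs. FLVCR1 had 5 to 6 intervals, 17.8 to 27.8% of the 3'UTR and a highest fold enrichment of 6.89 to 10.2, and 1 to 2 genes of the iron and heme list had an interval. A q-value under 0.01 or 0.001 removed 1 FLVCR1 peak of replicate 1, leaving 4, and changed no other of the 12 results. These limits could remove no TFRC peak, since the highest q-value there was 3.05e-09. Nor could they remove a shared FLVCR1 peak, where the highest was 8.71e-06. A fold enrichment of at least 4 could change none of these 12, since the lowest value among the peaks behind them was 4.31. The values under the q-value and fold enrichment limits are counted among the 52 all the same, so 52 of 64 overstates how stable the results were. All 12 values that moved did so under reciprocal overlap or with a replicate alone. Other values, such as coverage per replicate and totals over all peaks, were not recomputed. Counting IREs by any base, or, chosen after seeing the data, with at least 4 of 5 pairs, left 4 of 5 in shared intervals. The loop CAGUGN alone drops IRE-A, which lay outside them, and so gave 4 of 4. No paired analysis was possible because each list holds only the comparison of a replicate with the control of the same number, and no values per library with which to fit it otherwise. Depth limits FLVCR1, with 4 to 8 reads at summits of replicate 1.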
